A study of Mus musculus with 21 samples.

Results

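The decision of a cell to leave G1 and copy its DNA rests on a small set of proteins, and 10 of their genes were followed here in mouse medulloblastoma cells: the D-type cyclins Ccnd1, Ccnd2 and Ccnd3, their kinases Cdk4 and Cdk6, the E-type cyclins Ccne1 and Ccne2, their kinase Cdk2, and the inhibitors Cdkn1b (p27) and Cdkn2c (p18). They were taken as every probe set of the array annotated to one of these 10 symbols. That gave 27 of the 45101 probe sets, and 25 of the 27 passed the filter on low signal. All 10 genes were among the 12367 tested.

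D-type cyclins are made in response to mitogens, bind Cdk4 or Cdk6 and start the phosphorylation of the retinoblastoma protein. This frees E2F factors, which switch on E-type cyclins and genes of DNA synthesis, and cyclin E with Cdk2 completes the step. Cdkn2c belongs to the INK4 inhibitors, which bind Cdk4 and Cdk6, whereas Cdkn1b belongs to the Cip/Kip family and inhibits Cdk2 complexes. In the developing cerebellum, Sonic hedgehog keeps granule neuron precursors dividing, with Ccnd1, Ccnd2 and Mycn among the genes it raises, and loss of the Hedgehog receptor Patched in these precursors gives rise to medulloblastoma.

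The cells came from cerebellar tumours of Patched mice and had been separated by the surface carbohydrate CD15. All 4 groups were tumour cells. Tumours titled conventional gave 6 arrays of the CD15 positive and 6 of the CD15 negative fraction, and tumours titled Math1-GFP gave 4 of the positive and 5 of the negative fraction. Math1, now Atoh1, specifies granule neuron precursors, and GFP is a green fluorescent protein used as a reporter. The titles were followed for the grouping, although the descriptions call the Math1-GFP tumours conventional too. No label gives the Patched allele, the ages of the mice, what the GFP was used for, or whether each sample is a separate animal. The p-values therefore reflect the spread among these samples only, some of which may be technical. There is no normal cerebellum among the samples.

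Values are array signals, each array having been scaled to the same trimmed mean, and tests were run on log2(signal + 32), where the added 32 makes changes of dim genes look smaller. Differences are log2 fold changes with their standard error (SE) from limma's fit to all 21 arrays, and a gene is called where its Benjamini-Hochberg adjusted p, taken over the 12367 genes, is under 0.05. The signal of a probe set depends on its probes, so levels were compared between samples and not between genes. In sorted cells, fewer cells of a type and less RNA per cell cannot be told apart. Median signals of the arrays lay between 22.1 and 32.7, and the number of arrays limits the precision. Titles number the conventional arrays 2 to 6 in both fractions, and arrays with the same number shared their deviations from the group means, so differences within these 5 pairs are given as well.

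Both fractions carried the granule lineage markers. The summed signal of 8 such genes was 13092 to 18608 in conventional CD15 positive and 17102.5 to 28154 in conventional CD15 negative cells. In Math1-GFP cells it was 14851 to 20954 in the positive and 18229 to 24015 in the negative fraction. Other cells differed between the groups. Summed signals of 14 microglia and macrophage genes reached 15137 in conventional CD15 positive and 5237 in conventional CD15 negative cells, against 2576 and 811 in the corresponding Math1-GFP cells. The medians of these groups were closer, at 3256 and 2381 against 609 and 478. Astrocyte sums reached 12632.5 in conventional CD15 positive cells (median 3722). Mural and fibroblast sums reached 4720 in conventional CD15 negative cells (median 1056). Neutrophil sums reached 4527 in Math1-GFP CD15 positive cells (median 199). The 2 erythroid genes summed to at most 28.5 on any array. The conventional arrays were taken as 2 sets, numbers 2 to 5 and the others. Whole-array correlations had a mean r of 0.958 within these sets and 0.928 between them. The arrays of the models also differ in a title suffix of unknown meaning, so a batch and the model cannot be told apart.

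**Figure D1:**
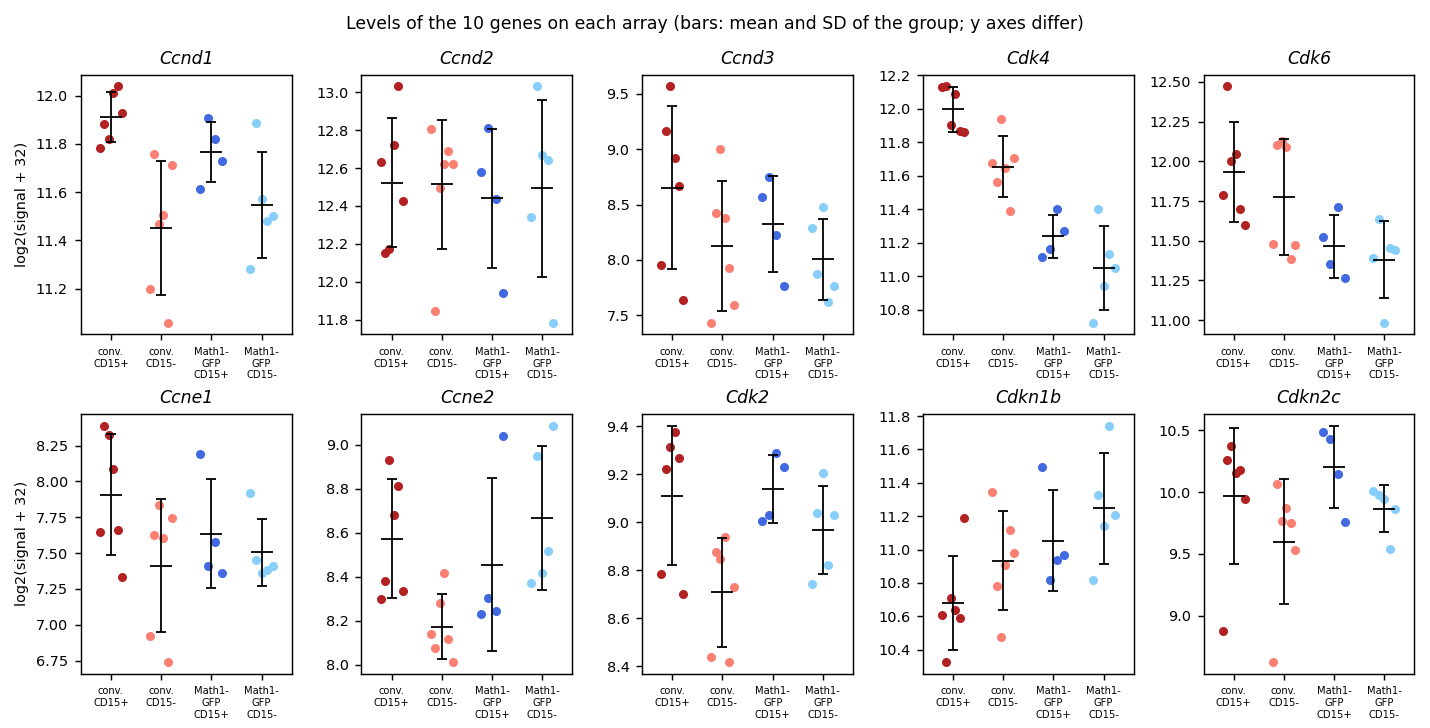
Signal of the 10 genes as log2(signal + 32) on each of the 21 arrays, by group, for the brightest probe set of each gene. Points are arrays and bars give the mean and SD. Ccnd1 separates the conventional CD15 fractions, and Cdk4 lies lower in the Math1-GFP groups.

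The promoters of Cdk4 and Cdk6, the 2 kinases called lower in Math1-GFP tumours by their brightest probe sets, are shown because they differ in the copies of one motif. Each is the 250 bases before a transcript start in RefSeq on GRCm38.p6, with every CACGTG in capitals. For Cdk4 this start is the start of the gene, whereas for Cdk6 it lies inside the annotated gene, which begins at position 3341004. This is the E-box that Myc and Max bind. Cdk4 lies at chr10:127063285-127063534 and Cdk6 at chr5:3343643-3343892, both on the plus strand.
Cdk4: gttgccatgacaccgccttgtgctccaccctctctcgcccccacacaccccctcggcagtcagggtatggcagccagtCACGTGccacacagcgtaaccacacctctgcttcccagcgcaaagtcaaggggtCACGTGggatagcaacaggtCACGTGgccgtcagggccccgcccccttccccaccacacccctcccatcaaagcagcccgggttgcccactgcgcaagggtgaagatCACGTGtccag
Cdk6: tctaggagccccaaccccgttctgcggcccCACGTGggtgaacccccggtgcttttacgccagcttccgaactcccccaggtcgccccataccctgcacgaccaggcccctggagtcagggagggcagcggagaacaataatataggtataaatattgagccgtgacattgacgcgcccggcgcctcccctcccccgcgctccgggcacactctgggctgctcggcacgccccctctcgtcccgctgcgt
The Cdk4 window holds 4 copies, the farthest beginning 172 bases before the start and the nearest ending 6 bases before it, and the Cdk6 window holds 1. Of 32851 windows of this length, 6.02% hold at least 1 copy and 7 (0.0213%) hold 4 or more. Windows of 7 of the genes were in the reference table and were searched on both strands for CACGTG, for the E2F motifs TTTCGCGC, TTTGGCGC and TTTCCCGC (together in 1.53% of windows) and for the Gli motif GACCACCCA (0.225%). TTTCCCGC occurred in the Cdk2 window (0.895% of windows), and no other match to these letters was present in the windows searched. Such matches are letters in a window and not binding sites.

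In conventional tumours, the D-type cyclin Ccnd1 rose in CD15 positive cells. Its signals there were 3492, 3586, 3744, 3869, 4100 and 4175, against 2102, 2316, 2802, 2873, 3326 and 3432 in CD15 negative cells. The groups did not overlap. How many of all genes separate in this way was not counted, here or in later comparisons. The log2 difference was 0.46 ± 0.12 (SE, 6 against 6 arrays; 1.38-fold), with an adjusted p of 0.021 by limma. All 5 numbered pairs had more in the positive cells, by 0.12 to 0.98 on the log2 scale. The other Ccnd1 probe sets gave 0.64 ± 0.14 (1417419_at) and 0.62 ± 0.16 (1448698_at), with adjusted p of 0.010 and 0.030 over the 23211 probe sets past the filter, so the 3 probe sets moved the same way.

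Ccnd1 was the member that passed in this comparison, 1 of 10. Of all genes tested, 3.05% were called higher and 8.13% called in either direction, so the count of calls is near the background. The direction was more uniform: 9 of the 10 differences were above 0, against 47.3% of all genes. These 9 include Ccnd2 at 0.01. The members were chosen with earlier results of these data known. Some are also correlated within groups, such as Ccnd3 with Ccne1 (r of 0.67), so the 9 are not separate observations. The median was 0.38 against -0.02 over all genes. An unadjusted p under 0.05 was held by 5 of the 10, and by 2746 of the 12367 genes. After quantile normalization Ccnd2 (-0.18) and Cdk6 (-0.01) were below 0, as was Cdkn1b (-0.31).

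The call on Ccnd1 was not firm, although it was held in 19 of 21 fits that each left out 1 array (0.38 to 0.52). With the arrays quantile-normalized its difference was 0.31 (adjusted p = 0.16), and the adjusted p was 0.051 without CD15 positive replicate 4 and 0.063 without CD15 negative replicate 5. Over the numbered arrays alone it was 0.056, and 0.0497 with the pair as a block. Within the 2 sets of conventional arrays the difference was 0.49 in numbers 2 to 5 (adjusted p = 0.097) and 0.40 in the others (adjusted p = 0.76). Each set holds fewer arrays, with 667 and 0 of the 12367 genes called. The adjusted p in the others therefore cannot bear on how firm the call is.

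The other D-type cyclins did not pass. Ccnd3 had signals of 168 to 726 in CD15 positive cells (median 414) and 141 to 481 in CD15 negative cells (median 256), a difference of 0.53 ± 0.30 (adjusted p = 0.33), with all 5 pairs higher by 0.05 to 0.74. The ranges of the fractions overlap widely. Ccnd2 had a difference of 0.01 ± 0.21 (95% interval -0.42 to 0.44), and 3 of its 5 pairs were higher. Its 7 probe sets gave differences of -0.29 to 0.01, none of them called.

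Of the kinases, Cdk4 and Cdk2 lay just outside the threshold. Cdk4 signals were 3678 to 4459 in CD15 positive cells (median 4064) and 2652 to 3894 in CD15 negative cells (median 3204), which overlap through CD15 negative replicate 3. The difference was 0.34 ± 0.11 (adjusted p = 0.065), and the other probe sets of Cdk4 gave 0.33 each. Cdk2 signals were 384 to 633 (median 576) against 310 to 459 (median 411), a difference of 0.40 ± 0.13 (adjusted p = 0.070). With the pair as a block the adjusted p of Cdk2 was 0.049. Cdk6 was at 0.16 ± 0.17 (adjusted p = 0.64), and at -0.01 after quantile normalization.

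The E-type cyclins, which bind Cdk2, had differences of similar size. Ccne2 signals were 282 to 456 in CD15 positive cells (median 340) and 226 to 309 in CD15 negative cells (median 248), a difference of 0.40 ± 0.16 (adjusted p = 0.14), and all 5 pairs were higher by 0.27 to 0.70. Ccne1 had 0.50 ± 0.21 (adjusted p = 0.17), with 4 of 5 pairs higher and number 6 lower by 0.41. Neither gene passed.

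The inhibitors pointed in opposite directions and neither was called. Cdkn2c had a difference of 0.37 ± 0.24 (adjusted p = 0.40). Its unnumbered arrays were the lowest of both fractions, at 439 and 363 against 953 to 1297 and 707 to 1037 on the others, yet every pair was higher, by 0.20 to 0.61. Cdkn1b was the member below 0, at -0.26 ± 0.17 (adjusted p = 0.41), and 3 of its 5 pairs were lower.

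**Figure D2:**
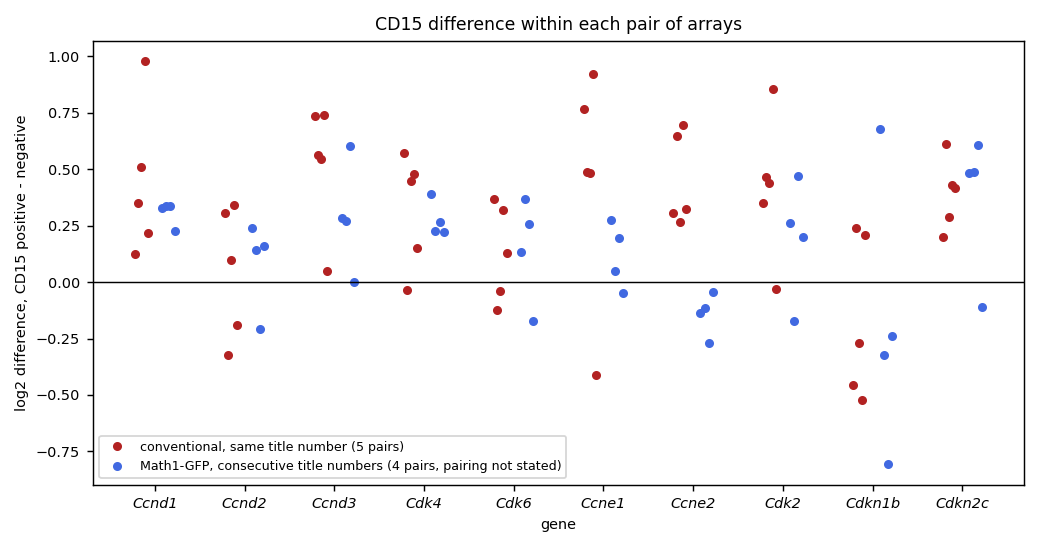
CD15 positive minus negative on the log2 scale within each pair of arrays, for the 5 numbered conventional pairs and for 4 pairs of consecutive Math1-GFP numbers, a pairing the labels do not state. Ccnd1 is above 0 in every pair of both models, whereas Ccne2 is above 0 in the conventional pairs and below 0 in the Math1-GFP pairs.

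Genes that act downstream of these proteins were examined in the same comparison. In it, 3.05% of all genes were called higher and 5.09% lower. Of 15 E2F targets of the G1/S step, 6 rose and 0 fell, with a median of 0.42. They included Tk1 (0.80 ± 0.16, adjusted p = 0.0035), which makes thymidine monophosphate, Pcna (0.57 ± 0.14, adjusted p = 0.014), the sliding clamp of DNA polymerase, and Mcm5 (0.50 ± 0.11, adjusted p = 0.0087) of the replicative helicase. After quantile normalization 2 of the 15 were called, with Pcna at 0.29 (adjusted p = 0.10) and Mcm5 at 0.34 (adjusted p = 0.067). With the pair as a block 7 were called. Over all genes, 811 of 12377 were called after quantile normalization and 1235 of 12367 with the pair as a block. Of 4 cyclins and kinases of S and M phase, 3 rose: Ccnb2 (1.04 ± 0.17, adjusted p = 0.0010), Ccna2 (0.91 ± 0.17, adjusted p = 0.0020) and Cdk1 (0.91 ± 0.17, adjusted p = 0.0028).

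Regulators of the G1 proteins had calls in both directions, as did all genes, with 3.05% called higher and 5.09% lower. Of 14 genes that activate these kinases or turn over G1 cyclins and p27, 2 rose and 1 fell. Those that rose were Skp2 (0.48 ± 0.12, adjusted p = 0.020), the ubiquitin ligase subunit that recognises p27, and Cks1b (0.61 ± 0.08, adjusted p = 0.00015), its cofactor, which was at 0.36 (adjusted p = 0.0059) after quantile normalization. The one that fell was Fbxo4 (-0.43 ± 0.12, adjusted p = 0.038), an F-box protein reported to act on cyclin D1; its call was lost with quantile normalization (adjusted p = 0.083) and with the pair as a block (adjusted p = 0.14). Of 13 pocket proteins and E2F factors, E2f8 (0.72 ± 0.17, adjusted p = 0.0093) and E2f7 (0.56 ± 0.17, adjusted p = 0.046) rose; both are atypical E2Fs that repress transcription. Of 5 further CDK inhibitors 0 were called by limma, and 0 had an unadjusted p under 0.05. Of 8 genes of the mitogenic input, Gli1 (0.70 ± 0.21, adjusted p = 0.038), a transcription factor and target of Hedgehog signalling, was called, though not with the pair as a block (0.67, adjusted p = 0.060), while Mycn was at -0.07 ± 0.27.

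Neuronal genes moved the other way between the same samples. Of 13 neuronal differentiation genes 10 fell in CD15 positive cells, where 5.09% of all genes were called lower. The summed signal of all 15 on that list was 7172 to 13101 in CD15 positive against 15133 to 31239 in CD15 negative cells, with no overlap. Of 8 granule lineage genes 1 was above 0 (median -0.27), and 1 was called lower. All 12 microglia and macrophage genes tested were above 0 (median 0.72), with 0 called by limma, 1 at an unadjusted p under 0.05, and 5 called with the pair as a block. All 9 mural and fibroblast genes were below 0 (median -0.59), with 0 called by limma, 2 at an unadjusted p under 0.05, and 3 called with the pair as a block. With that block 1235 of all 12367 genes were called. The part of these cell types in the differences of the G1 genes was not tested.

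In Math1-GFP tumours, 0 of the 10 genes were called between the CD15 fractions, where 0.0404% of all genes were, and 0 had an unadjusted p under 0.05. The median difference was 0.15, with 7 above 0, where 50.9% of all genes were. Ccnd1 signals were 3099, 3361, 3582 and 3807 in CD15 positive cells and 2460, 2828, 2868, 3010 and 3759 in CD15 negative cells. They overlap through CD15 negative replicate 4. The difference was 0.22 ± 0.14 (95% interval -0.07 to 0.51; adjusted p = 0.72).

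The remaining genes of the Math1-GFP comparison had wide intervals. Cdk4 was at 0.19 ± 0.13 and Cdk2 at 0.17 ± 0.16. Cdkn2c was at 0.34 ± 0.28 and Ccnd3 at 0.32 ± 0.35. Ccnd2 (-0.05 ± 0.24), Cdkn1b (-0.19 ± 0.20) and Ccne2 (-0.21 ± 0.19) were the members below 0. In the lists, 0 of 15 E2F targets and 0 of 4 S and M phase genes passed by limma, while 2 and 4 of them had an unadjusted p under 0.05. Over all genes, 1073 of 12367 had an unadjusted p under 0.05 in this comparison. The median was 0.10 for the E2F targets and 0.75 for the S and M phase genes. Of the cell type markers, 0 in the following lists were called by limma. Of 8 granule lineage genes 2 were above 0 (median -0.23, 3 at an unadjusted p under 0.05). All 13 neuronal genes were below 0 (median -0.67, 8 at an unadjusted p under 0.05). Of 9 astrocyte genes 8 were above 0 (median 1.11, 2 at an unadjusted p under 0.05), and of 12 microglia and macrophage genes 11 were (median 0.46, 0 at an unadjusted p under 0.05). Of 9 mural and fibroblast genes 8 were above 0 (median 0.31, 0 at an unadjusted p under 0.05). Their part in the differences was not tested.

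Whether the CD15 difference depended on the model was tested directly. Of the 10 genes 0 were called by limma, as were 0% of all genes, while 279 of 12367 had an unadjusted p under 0.05. Ccne2 had an unadjusted p under 0.05: its CD15 difference was 0.40 in conventional and -0.21 in Math1-GFP tumours, and the difference between them was -0.61 ± 0.25 (unadjusted p = 0.022, adjusted p = 0.9998). For Ccnd1 this value was -0.24 ± 0.19 (95% interval -0.63 to 0.15). In Math1-GFP cells, Ccne2 signals were 268, 271, 284 and 495 in the positive and 299, 310, 334, 462 and 512 in the negative fraction. CD15 positive replicate 9 stood apart from the other 3 arrays of its group.

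Averaged over both models, Ccnd1 was called at 0.34 ± 0.09 (adjusted p = 0.023), where 3.77% of all genes were called higher. It was 0.24 (adjusted p = 0.13) after quantile normalization, and its adjusted p was 0.054 without Math1-GFP CD15 positive replicate 5. Cdk4 was at 0.27 ± 0.09 (adjusted p = 0.055) by its brightest probe set, while its other probe sets passed, at 0.29 (1422440_at, adjusted p = 0.032 over all probe sets) and 0.26 (1422439_a_at, adjusted p = 0.045). Cdk2 was at 0.29 ± 0.10 (adjusted p = 0.081). With the conventional pairs as a block, Cdk2 (0.29 ± 0.09, adjusted p = 0.044) and Cdkn2c (0.36 ± 0.10, adjusted p = 0.026) passed as well. Cdkn2c also passed over the same arrays with no block (adjusted p = 0.035), since the unnumbered arrays are absent from both fits.

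**Figure D3:**
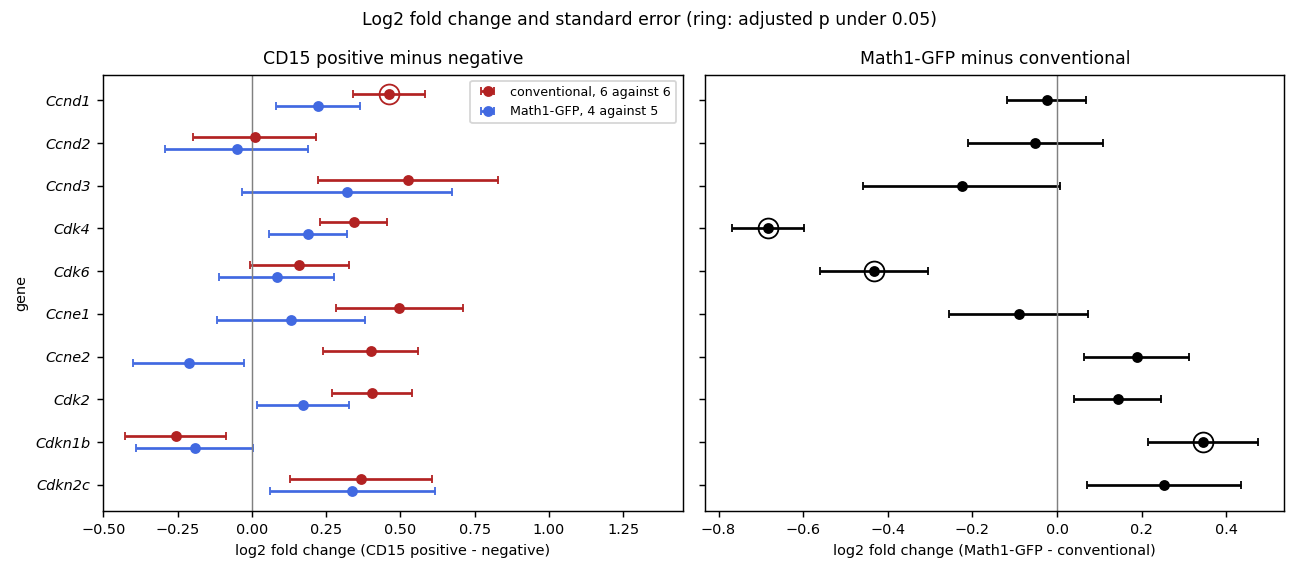
Log2 fold changes of the 10 genes with their SE: on the left CD15 positive minus negative in conventional (6 against 6 arrays) and Math1-GFP (4 against 5) tumours, on the right Math1-GFP minus conventional averaged over both fractions. Rings mark an adjusted p under 0.05, held by Ccnd1 on the left and by Cdk4, Cdk6 and Cdkn1b on the right.

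Between the models, Cdk4 fell in Math1-GFP tumours in both fractions. In CD15 positive cells its signals were 2182, 2262, 2436 and 2669 in Math1-GFP against 3678, 3702, 3801, 4326, 4442 and 4459 in conventional tumours. These groups lie far apart. In CD15 negative cells they were 1656, 1929, 2081, 2212 and 2666 against 2652, 2994, 3165, 3243, 3312 and 3894, which overlap by the highest Math1-GFP and the lowest conventional array. The difference was -0.68 ± 0.09 (0.62-fold; adjusted p = 4.5e-06), or -0.76 ± 0.13 in positive and -0.61 ± 0.12 in negative cells. The other Cdk4 probe sets gave -0.63 ± 0.07 and -0.59 ± 0.08, and after quantile normalization the difference was -0.43 (adjusted p = 0.00040).

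Of the 10 genes 2 fell and 1 rose in this comparison, in which 20.5% of all genes were called lower and 18.7% higher, so these counts are near the background. After quantile normalization 37.0% of the called genes were higher, against 47.7% as deposited. The arrays also differed in the bright range and in RNA controls. The signal at the 99th percentile was 3323 to 4043 on Math1-GFP arrays and 4169 to 5211 on conventional ones. The log2 ratio of the 3' to the 5' Gapdh control was -0.54 to -0.38 and -0.35 to -0.05, without overlap. With that ratio as a covariate, the calls over all genes went from 4845 to 965, and Cdk4 kept its call (adjusted p = 0.029).

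Cdk6, the partner kinase of the D-type cyclins beside Cdk4, was called lower by its brightest probe set, at -0.43 ± 0.13 (adjusted p = 0.012). Its signals were 2435 to 3322 and 1994 to 3150 in Math1-GFP positive and negative cells, against 3068 to 5651 and 2638 to 4443 in conventional cells. The groups overlap in both fractions. The call was lost after quantile normalization (-0.16, adjusted p = 0.34) and with the Gapdh ratio as a covariate (-0.34, adjusted p = 0.44). The other probe sets did not share it: 1455287_at was at -0.11 ± 0.15, and 1460291_at rose by 1.06 ± 0.10, from 98.7 to 201 on the conventional arrays to 254 to 426 on the Math1-GFP arrays. The mean of the probe sets was at 0.17, so the direction for Cdk6 depends on the probe set.

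Ccnd2 had the same kind of disagreement. Its brightest probe set was at -0.05 ± 0.16, with signals of 3649 to 8343 on conventional and 3494 to 8343 on Math1-GFP arrays. Probe set 1416124_at rose by 1.78 ± 0.25 (adjusted p = 7.1e-06 over all probe sets), from 35.0 to 258 on conventional to 350 to 932 on Math1-GFP arrays, with no overlap. The 5 others lay between -0.21 and 0.30 and were not called. After quantile normalization these dim probe sets were at 1.73 for Ccnd2 and 0.95 for Cdk6. Which transcript forms the probe sets detect was not examined.

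For Ccnd1 the brightest probe set was at -0.02 ± 0.09 between the models. Probe set 1448698_at fell by 0.52 on the log2 scale, with an adjusted p of 0.0025. After quantile normalization the brightest one was higher in Math1-GFP tumours, at 0.26 (adjusted p = 0.034), and as a mean over probe sets Ccnd1 was lower, at -0.26 (adjusted p = 0.035). No direction can be given for Ccnd1 between the models.

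The inhibitor Cdkn1b rose in Math1-GFP tumours by 0.34 ± 0.13 (1.27-fold; adjusted p = 0.041). Its signals were 1770 to 2853 and 1772 to 3395 in positive and negative cells, against 1252 to 2300 and 1391 to 2566 in conventional cells, so that the groups overlap. The second probe set gave 0.63 ± 0.17 (adjusted p = 0.0050 over all probe sets), and after quantile normalization the brightest one was at 0.54 (adjusted p = 0.0025). The call was held in 8 of 21 fits that each left out 1 array (adjusted p up to 0.10, without Math1-GFP CD15 positive replicate 1), and was lost with no filter (adjusted p = 0.053) and with the Gapdh ratio as a covariate (0.12, adjusted p = 0.82).

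Of the remaining genes, Ccnd3 (-0.23 ± 0.23), Ccne1 (-0.09 ± 0.16), Ccne2 (0.19 ± 0.12), Cdk2 (0.14 ± 0.10) and Cdkn2c (0.25 ± 0.18) were not called between the models. Within CD15 negative cells alone, Ccne2 was called at 0.49 ± 0.17 (adjusted p = 0.046), whereas in CD15 positive cells it was at -0.12 ± 0.18. In the CD15 negative cells 2274 of all 12367 genes were called, and this split was added after seeing the data.

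**Figure D4:**
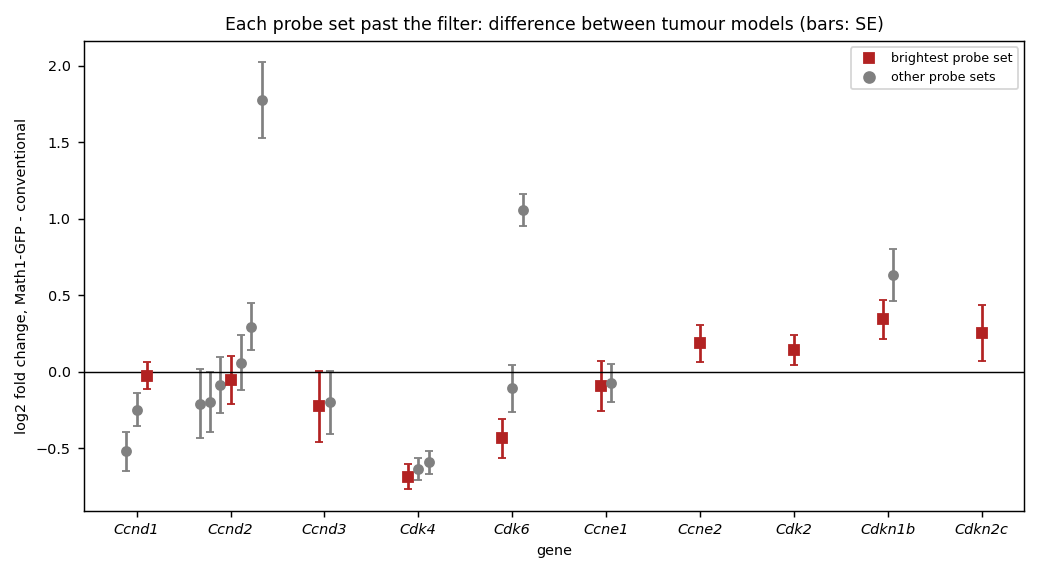
Math1-GFP minus conventional for each of the 25 probe sets past the filter, as log2 fold change with its SE, grouped by gene; squares mark the brightest probe set. The Cdk4 probe sets lie together between -0.68 and -0.59, whereas 1 probe set each of Ccnd2 (1.78) and Cdk6 (1.06) lies far above the others of its gene.

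In the lists around the G1 genes, both directions occurred between the models, as over all genes, of which 18.7% were called higher and 20.5% lower. Of the genes that activate the kinases or turn over their partners, 4 rose and 6 fell. They included Cdc37 (-0.45 ± 0.08), the chaperone partner that delivers Cdk4, Ccnh (-0.71 ± 0.11) of the CDK-activating kinase, and Cdc25a (0.49 ± 0.10), a phosphatase that activates Cdk2. Of the 5 further CDK inhibitors 2 fell, Cdkn2b (-1.06 ± 0.26, adjusted p = 0.0027) and Cdkn2d (-0.28 ± 0.11, adjusted p = 0.049). In the mitogenic input, Gli2 (1.00 ± 0.16, adjusted p = 4.8e-05) and Mycn (0.74 ± 0.21, adjusted p = 0.0082) rose. E2F targets were split, with 4 of 15 called higher and 3 lower, near the shares of all genes. After quantile normalization 5 were higher and 0 lower, where 4852 of 12377 genes were called, 1793 of them higher. Of 12 microglia and macrophage genes 11 fell, and their part in the differences was not tested.

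The gene whose signal followed Ccnd1 most closely over the 21 arrays was Gli1, with a Pearson r of 0.89, and 0.79 after subtracting group means. Next were Nde1 (0.84) and Spc24 (0.82). For Cdk4 the nearest were Timm13, Taf10 and Fam162a (0.97 each; 0.79 to 0.82 after subtracting group means). Ccnd3 lay nearest to Cdh15 (0.95), Cdk6 to Npr3 (0.91), Cdkn2c to Pls3 (0.88) and Cdk2 to Elavl1 (0.84). Ccne1 (Acot1, 0.82), Cdkn1b (Tmcc1, 0.78), Ccnd2 (1700048O20Rik, 0.77) and Ccne2 (Tex13b, 0.76) had looser neighbours. Some neighbours are dim: Npr3 signals were at most 15.0 on the Math1-GFP arrays. Tex13b was at 638 on Math1-GFP CD15 positive replicate 9 and 269 on CD15 negative replicate 10. On the other Math1-GFP arrays it was at most 33.7. The correlations are the highest over all genes tested and are descriptions, as arrays share their sort, model and scaling.

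**Figure D5:**
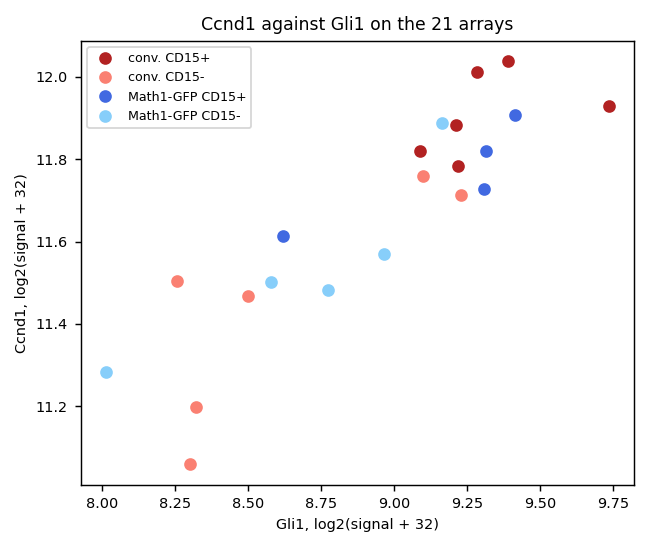
Ccnd1 against Gli1, both as log2(signal + 32), on the 21 arrays, coloured by group. The points follow a line (Pearson r of 0.89), and the conventional CD15 positive arrays lie toward its upper end together with 3 of the Math1-GFP CD15 positive arrays. Some CD15 negative arrays share their Gli1 range, such as conventional replicate 6 (9.23) and Math1-GFP replicate 4 (9.16).

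Among themselves, the 10 genes did not move as a block from array to array. After subtracting group means, the closest pairs were Ccnd3 with Cdkn2c (r of 0.71), Ccnd3 with Ccne1 (0.67) and Cdk6 with Ccne1 (0.66). Cdkn1b ran against Ccnd3 (-0.59), and Cdk4 and Cdk6 were at 0.50. Ccnd1 ran against the mean of the neuronal genes (-0.64), as did Cdk2 (-0.59). Ccnd2 was loosely related to every other member, between -0.31 and 0.25.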

How the data were processed

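Expression in sorted tumour cells was read on Affymetrix Mouse Genome 430 2.0 arrays. The authors deposited 1 linear intensity per probe set and array, and what software made these was not given in the sources used here. Each array has a mean of 150.0 once 2% of its values are trimmed at each end, so scaling by the authors was read from the values.

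Intensities were put on a log2 scale after adding 32. The 64 control probe sets, those with several or no gene symbols, and those under the 40th percentile of mean log2 values (near a signal of 15.5) were left out, and each gene was represented by its brightest probe set. A model of 4 group means was fitted to 21 arrays by limma 3.58.1 under R 4.3.3, leaving 17 residual degrees of freedom, with 5 contrasts, two-sided tests and Benjamini-Hochberg adjustment. The pipeline was tested on simulated data. No member fell below the filter, so the test planned for such members was not needed.

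The members and gene lists were chosen with earlier results of these data known. The named genes were the 10 members, genes of the lists and the 3 genes most correlated with each member. Title numbers 2 to 6 were taken to pair the conventional arrays, because deviations from group means correlated at 0.58 to 0.76 within the 5 pairs, and other combinations reached 0.40 at the highest. Other settings were quantile normalization, pseudocounts, filters, ways to combine probe sets, blocks and leaving out arrays; the difference between models within each fraction and the Gapdh covariate were added after seeing the data. Promoter sequences are from RefSeq.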

Additional observations from a re-analysis of the deposited data

Results flagged for a closer look

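Within groups, 40 sets of values (10 genes in 4 groups) were examined for a sample far from the others, and 5 had one; chance gives about 1 in 20. In log2(signal + 32), Cdkn2c was low on the unnumbered arrays of both conventional fractions, at 8.88 in CD15 positive cells (nearest 9.94) and 8.62 in CD15 negative cells (nearest 9.53). Ccnd2 was low on conventional CD15 negative replicate 2, at 11.85 (nearest 12.49). Ccne1 was high on Math1-GFP CD15 negative replicate 2, at 7.92 (nearest 7.45). Ccne2 was high on Math1-GFP CD15 positive replicate 9, at 9.04 (nearest 8.30).

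Ccne2 was above 0 in CD15 positive minus negative for all 5 conventional pairs and below 0 for all 4 Math1-GFP pairs formed from neighbouring numbers, a pairing not given by the labels. The test of the difference between the models gave -0.61 ± 0.25 (unadjusted p = 0.022, adjusted p = 0.9998 by limma), and -0.81 to -0.51 when each array was left out in turn.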

How the results depend on the processing

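The members' differences were recomputed under each alternative that bears on a comparison and without each array, 1780 values in all; 70 of them changed sign and 67 changed side of the threshold. The difference between the models was not fitted with blocks, and settings confined to some groups give only their own comparisons. Among the sign changes, 1 concerned a called difference, that of Cdk6 between the models, at 0.17 as the mean of its probe sets, and 1 gave a call, that of Ccnd1 between the models, at 0.26 after quantile normalization. Cdk4 between the models kept its direction and its call under every setting run for it and with each array left out, at -0.76 to -0.43.

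For conventional CD15 cells, 0 members were called after quantile normalization, over the numbered arrays without a block, within numbers 2 to 5 and within the other conventional arrays. There were 2 with the largest pseudocount, a filter at the 60th percentile, the mean of probe sets, eBayes with trend and robust estimation, the replicate block (numbered pairs), the conventional sets as a block, and without Math1-GFP arrays 1 and 2. There were 6 with consecutive Math1-GFP numbers added to the block, although no label pairs them, and 0 to 2 when each array was left out. The calls over all genes moved with the setting too, from 1006 in the main fit. They were 811 after quantile normalization and 0 within the other conventional arrays. Over the numbered arrays they were 768 without a block, 1235 with it and 2898 with the Math1-GFP numbers added. Averaged over the models, the counts were 0 after quantile normalization, 2 with the largest pseudocount, the filter at the 60th percentile, the mean of probe sets, trend and robust estimation and the numbered arrays without a block, 3 with the replicate block and with the sets as a block, and 5 with the Math1-GFP numbers in the block, with 0 to 3 when each array was left out. Over all genes, the averaged calls went from 1204 to 1136 after quantile normalization and to 3673 with the Math1-GFP numbers in the block. Between the models, 1 was called in CD15 positive arrays alone and 1 with the Gapdh covariate, against 3. Over all genes these counts were 2853 and 965, against 4845. For the CD15 difference in Math1-GFP tumours and for its dependence on the model, 0 were called under every setting run for them. Against the same arrays without it, the replicate block brought Cdk2 in conventional cells and averaged over models (adjusted p = 0.049 and 0.044) and Ccnd1 in conventional cells (0.0497) past the threshold, and it changed no other call on the 10 genes in the 4 comparisons fitted with it.

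Sign changes under other settings were as follows. In conventional cells, Ccnd2 was at -0.18 and Cdk6 at -0.013 after quantile normalization, at -0.14 and -0.037 as means of probe sets, and Ccnd2 was at -0.18 within the other conventional arrays and -0.041 with the Gapdh covariate. In Math1-GFP cells, Ccnd2 was at 0.083 with consecutive numbers as a block and 0.0017 with the Gapdh covariate. For the dependence on the model, quantile normalization gave 0.017 for Ccnd2, 0.038 for Cdk6 and 0.026 for Cdkn2c; the mean of probe sets gave 0.015 for Ccnd2, 0.11 for Cdk6 and -0.069 for Cdkn1b. Cdkn1b was at -0.032 over the numbered arrays with and without the replicate block, at -0.013 with Math1-GFP numbers in the block, where Ccnd2 was at 0.037 and Cdk6 at 0.016, and at -0.19 without Math1-GFP arrays 1 and 2; Ccnd2 was at 0.043 with the covariate. Averaged over models, Ccnd2 was at 0.065 with the Math1-GFP numbers in the block. Between the models, Ccnd1 was at 0.26 and Ccnd2 at 0.34 after quantile normalization, Ccnd2 at 0.23 as a mean of probe sets, Ccnd1 at 0.034 without Math1-GFP arrays 1 and 2, Ccne2 at -0.12 in CD15 positive arrays alone, Ccnd1 at 0.095 and Ccne1 at 0.092 in CD15 negative arrays alone, and Ccne1 at 0.039 and Ccne2 at -0.0015 with the covariate. The causes of these changes were not tested.

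Leaving out each array in turn changed signs as follows. Conventional Ccnd2 ranged from -0.12 to 0.084. In Math1-GFP cells, Ccnd2 ranged from -0.23 to 0.12, Cdk6 from -0.016 to 0.15 and Ccne1 from -0.054 to 0.23. The dependence on the model ranged from -0.24 to 0.11 for Ccnd2, -0.18 to 0.031 for Cdk6, -0.084 to 0.19 for Cdkn1b and -0.25 to 0.17 for Cdkn2c. Averaged over models, Ccnd2 ranged from -0.11 to 0.062 and Ccne2 from -0.0038 to 0.15. Between the models, Ccnd1 ranged from -0.068 to 0.0080 and Ccnd2 from -0.12 to 0.037, with 2 to 3 members called.

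The Gapdh ratio separates the models without overlap, so the covariate and the model can hardly be separated. The number of arrays limits the precision, and dim probe sets of Ccnd3 and Cdk2 were below the filter.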
